A study of Mus musculus with 9 samples.

Results

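Syk, 2 kinases of the Src family that act upstream of it (Lyn and Fgr) and 6 genes that act downstream of it (Btk, Plcg2, Vav1, Blnk, Lcp2 and Card9) were followed in the abdominal aorta of mice that lack mature B cells. These 9 genes were taken by name as the core of one signalling route, a choice made with earlier results of these data known. The array held 13 probes for them among 55681 probes. After probes at background were left out, 12 of the 13 remained and all 9 genes were among the 16776 genes tested.

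All animals carried the uMT genotype on the C57BL/6 strain, a mutation of the IgM heavy chain locus that stops B cells from maturing because no membrane IgM can be made. In the uMT_Ca+IgG group, 0.5 M CaCl2 was applied around the aorta, a procedure used to induce aneurysm, and mouse polyclonal IgG was injected into the peritoneum. The uMT_Ca group received CaCl2 alone, and the uMT_sham group had saline applied around the aorta in its place. Aortas of CaCl2-treated mice were taken on day 7, but no source used here states the day for sham mice or the age of any mouse. Each group had 3 samples, 1 array each. The labels do not say that the samples of a group came from separate animals, and the spread behind the p-values may therefore be technical. No wild-type aorta was analysed here, so every statement is about aortas without mature B cells.

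Syk is a cytosolic tyrosine kinase of myeloid cells, B cells, mast cells and platelets. Src-family kinases such as Lyn and Fgr phosphorylate the ITAM, a tyrosine motif in the tails of Fc receptor chains and related receptors, and Syk docks on the phosphorylated motif through its SH2 domains. Active Syk phosphorylates adaptors such as Blnk and Lcp2, which gather Btk, Plcg2 and Vav1, while Card9 links Syk to NF-kB. In aortic tissue the route is known chiefly from infiltrating leukocytes, where it couples immune complexes and C-type lectin ligands to cytokine release. The arrays measured mRNA; phosphorylation of these proteins was not analysed here.

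What each probe reads is shown first, because several genes have more than 1 probe and these probes gave different levels. Each probe is a 60-base oligonucleotide, and the last 30 bases are printed, 5′ to 3′, with the polyadenylation signal AATAAA in capitals where a search of the probe strand found it. The first 4 hold the signal, which marks the 3′ end of many transcripts, and the last 2 are the other probes of Syk and Vav1.
Syk, chr13:52744088-52744147 (mm9, plus strand): tttcagaaattattttaAATAAAgatctac
Blnk, chr19:41003426-41003485 (mm9, minus strand): tgatactaatattgtccaAATAAAtgtatt
Plcg2, chr8:120158980-120159037 (mm9, plus strand): cattgAATAAAgacaacagtttcatgccaa
Vav1, chr17:57467307-57467366 (mm9, plus strand): ggcttgaggcaactgattctAATAAAgtga
Syk, other probe, chr13:52738924-52738983 (mm9, plus strand): agctgtatcgattagctgccagcaggatga
Vav1, other probe, chr17:57451288-57454690 (mm9, plus strand): cattaagtataacgtggaggtcaagcatat
The signal was present in 4 of the 13 probes, against 10.1% of the 55681 probes of the array. The other Vav1 probe covers 3403 bp of genome with 60 bases and therefore crosses at least 1 intron. The coordinates are those of the scanner files.

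Promoters are shown because all 9 genes were called higher in CaCl2 than in sham aortas. Whether they share a regulator was not tested. Windows of 300 bases, 250 before and 50 after the gene start, came from RefSeq on build GRCm38.p6. These held 9 windows for 8 of the genes, with 2 starts for Syk, and Lyn was not among them. GAGGAA, a core recognised by PU.1 and other ETS factors, was searched on both strands and is in capitals (TTCCTC where it lies on the opposite strand).
Syk, second start, chr13:52596632-52596931 (GRCm38.p6, plus strand): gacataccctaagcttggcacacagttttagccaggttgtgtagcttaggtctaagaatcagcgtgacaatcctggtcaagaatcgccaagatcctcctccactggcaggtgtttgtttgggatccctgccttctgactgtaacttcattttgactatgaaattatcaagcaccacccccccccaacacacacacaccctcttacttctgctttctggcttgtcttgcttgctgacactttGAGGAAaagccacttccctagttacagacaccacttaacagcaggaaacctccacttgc
Btk, chrX:134583091-134583390 (GRCm38.p6, minus strand): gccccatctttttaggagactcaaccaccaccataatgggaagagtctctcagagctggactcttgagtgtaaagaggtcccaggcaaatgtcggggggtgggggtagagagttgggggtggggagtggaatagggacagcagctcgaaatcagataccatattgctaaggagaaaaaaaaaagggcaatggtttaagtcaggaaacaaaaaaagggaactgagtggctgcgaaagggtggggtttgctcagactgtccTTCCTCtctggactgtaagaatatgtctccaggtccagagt
Vav1, chr17:57278850-57279149 (GRCm38.p6, plus strand): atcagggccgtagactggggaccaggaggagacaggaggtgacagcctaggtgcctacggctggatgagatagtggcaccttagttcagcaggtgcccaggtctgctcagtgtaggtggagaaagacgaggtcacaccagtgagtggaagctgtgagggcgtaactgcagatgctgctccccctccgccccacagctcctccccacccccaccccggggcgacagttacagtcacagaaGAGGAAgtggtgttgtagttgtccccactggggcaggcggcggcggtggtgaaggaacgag
GAGGAA occurred in 5 of the 9 windows, those of Btk, Fgr, Lcp2, Vav1 and the second Syk start, and in 28.3% of 32851 mouse promoter windows of the same length. It began 9 bases before the start in Syk and 11 bases before it in Vav1, on the gene strand. On the opposite strand it began at base 10 after the start in Btk, at base 5 in Lcp2 and at base 32 in Fgr. GGGCGG (the GC box, both strands) was found in 2 windows, those of Plcg2 and Vav1, against 35.7% of all windows. TGTGGT (the RUNX core) was found in 0 of the 9 against 16.8% and TATAAA (the TATA box) in 0 against 13.6%, both on either strand. No motif overlapped another in these windows, and a match describes the letters, not binding.

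Values are log2 of the processed signal minus the 75th percentile of the array, so values above 0 belong to the brighter spots of that array. An array had 54.9% to 59.9% of its probes well above background and 0 probes saturated. The 75th percentile lay at 269.5 to 454.9 units in CaCl2+IgG aortas, 380.6 to 495.9 in CaCl2 aortas and 266.7 to 301.7 in sham aortas. In a principal component analysis over the tested genes, CaCl2+IgG replicate 3 stood apart on the second component (11.9% of the variance), at -75.6 against 0.7 to 16.1 for the other 8 arrays. On the first component (69%) it lay at 1.9, between the sham arrays and the other CaCl2-treated arrays. The sham arrays were at -104.7 to -79.2 there and the other CaCl2-treated arrays at 33.4 to 71.1. Sham replicate 3 was alone on its slide and in its scan, so a fit with the slide as a block equals one without that array. Array counts limit the precision: 3 arrays a group left 6 residual degrees of freedom. Smooth muscle markers were measured on every array.

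CaCl2 in place of saline was the first comparison, which asks how the route stands in the injured aorta without B cells. All 9 genes were higher in CaCl2 than in sham aortas in limma (adjusted p under 0.05), by 0.85 to 4.08 on the log2 scale, and in all 9 the arrays did not overlap. Of all 16776 genes, 17.2% were called higher, 19% lower and thus 36.3% in either direction, and 24.5% were higher without overlap. The count of 9 is not evidence by itself, because Lyn, Fgr, Btk, Lcp2 and Card9 were well above background on all arrays of only the CaCl2-treated groups and so could pass the filter only where they were high. Syk, Plcg2, Vav1 and Blnk were measured on all 9 arrays, and all 4 were called higher, against 15.3% of the 14830 genes measured on all 9. As this is whole tissue, more cells of a type and more RNA per cell cannot be told apart.

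Syk itself was at 2.01, 2.50 and 2.59 in CaCl2+IgG aortas, at 2.69, 2.25 and 3.03 in CaCl2 aortas and at 1.09, 1.38 and 0.59 in sham aortas. Every CaCl2-treated array lay above every sham array. The mean was 2.66 ± 0.39 in CaCl2 aortas and 1.02 ± 0.40 in sham aortas (SD, n = 3 each). The difference of 1.64 ± 0.27 (SE; 95% interval 1.01 to 2.26), a 3.11-fold higher signal, had an adjusted p of 0.00335 (limma). Only Plcg2 and Card9 had smaller differences among the 9 genes. Within the upper row of array positions, which held 3 CaCl2 arrays and 1 sham array on another slide, the Syk difference was 2.07, and with the row as a block it was 2.03 (adjusted p = 0.00354). Without sham replicate 3 it was 1.42 (adjusted p = 0.0121).

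Of the kinases upstream, Lyn, which phosphorylates ITAMs and also inhibitory receptors, was at -1.88, -1.11 and -1.35 in CaCl2+IgG aortas, at -1.43, -1.88 and -1.28 in CaCl2 aortas and at -4.13, -3.72 and -5.10 in sham aortas. Fgr, a Src-family kinase of myeloid cells, was at -0.36, -0.23 and -0.21 in CaCl2+IgG aortas, at -0.54, -0.54 and 0.96 in CaCl2 aortas and at -3.80, -3.90 and -4.67 in sham aortas. For both genes sham replicate 3 was the lowest array and was not well above background, while the other sham arrays were just above it. CaCl2 replicate 3 was the highest array for Fgr, well over its group's other arrays. Lyn was 2.79 ± 0.36 higher in CaCl2 than in sham aortas (6.90-fold; adjusted p = 0.00123) and Fgr 4.08 ± 0.41 (16.9-fold; adjusted p = 0.000586), the largest difference of the 9 genes by the fitted value. Background correction with normexp, which here added an offset of 50 units to every signal, gave smaller differences for both. These were 1.07 for Lyn and 2.12 for Fgr, with adjusted p of 0.00199 and 0.000847 (limma).

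**Figure D1:**
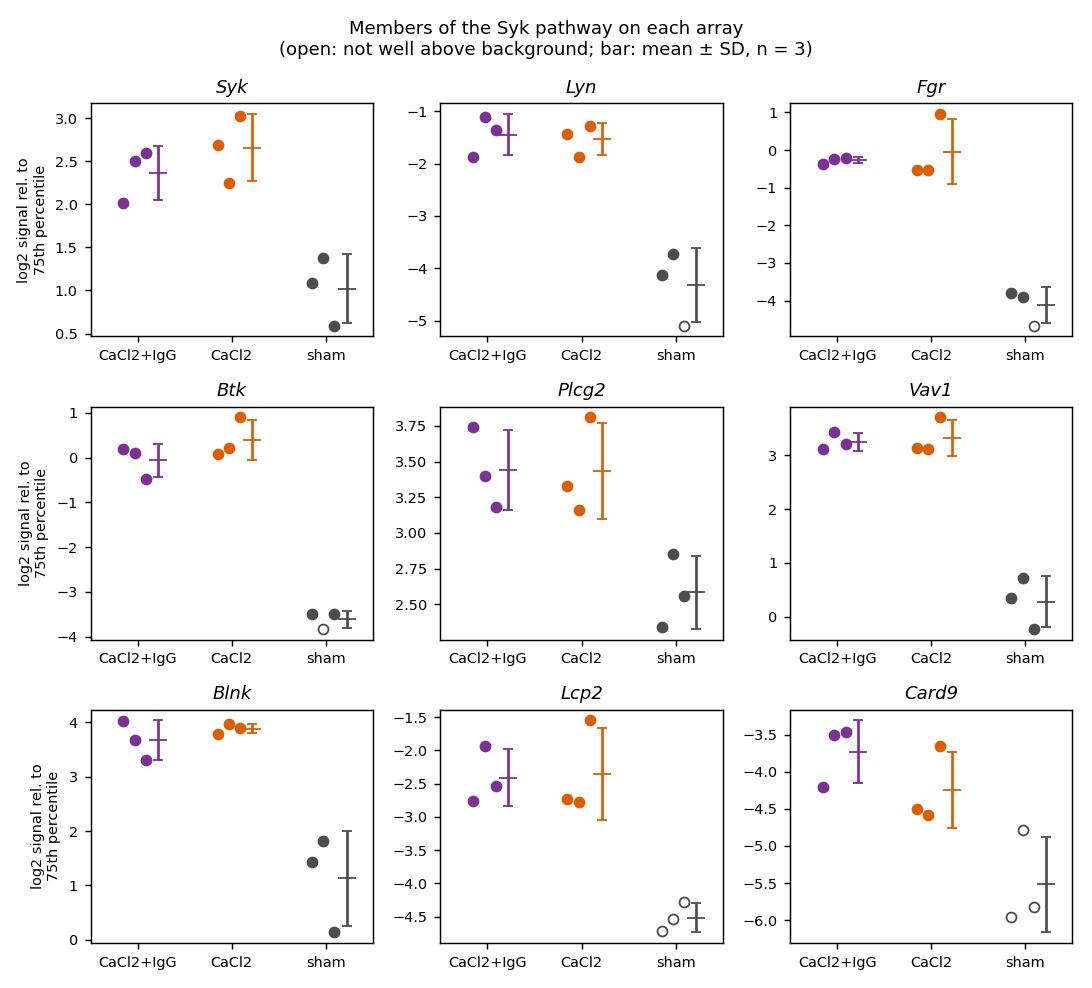
Each panel plots 1 gene, with the log2 signal relative to the array's 75th percentile on the vertical axis (its range differs between panels) and the CaCl2+IgG, CaCl2 and sham arrays side by side. Points are single arrays, open where the probe was not well above background, and the bars are mean ± SD (n = 3). The sham arrays lie below all CaCl2-treated arrays in every panel, the gap is narrowest for Plcg2 and Card9, and the 2 CaCl2-treated groups overlap in all 9.

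The adaptors that Syk phosphorylates were both higher after CaCl2, one of them measured on every array. Blnk, the adaptor best known from B cells and also present in macrophages, was at 4.03, 3.68 and 3.31 in CaCl2+IgG aortas, at 3.79, 3.96 and 3.90 in CaCl2 aortas and at 1.43, 1.82 and 0.14 in sham aortas. It was well above background on every array, and sham replicate 3 was far below the other sham arrays. Blnk was 2.75 ± 0.40 higher in CaCl2 than in sham aortas (6.75-fold; adjusted p = 0.00181), and 2.26 without sham replicate 3 (adjusted p = 0.00191). Lcp2, the adaptor of T cells, mast cells, platelets and myeloid cells, was at -2.76, -1.93 and -2.54 in CaCl2+IgG aortas, at -2.73, -2.77 and -1.55 in CaCl2 aortas and at -4.72, -4.54 and -4.28 in sham aortas. All 3 sham values of Lcp2 were not well above background, so its signal was at least 3.71-fold higher in CaCl2 than in sham aortas (adjusted p = 0.003). With normexp the Lcp2 difference was 0.35 and did not pass (adjusted p = 0.219). A bound of this kind sets the mean of the bright group against, for each dim array, the higher of the dim probe and the lowest signal that was well above background.

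Downstream of the adaptors, Btk, the Tec-family kinase that phosphorylates Plcg2, was at 0.19, 0.11 and -0.48 in CaCl2+IgG aortas, at 0.07, 0.21 and 0.90 in CaCl2 aortas and at -3.50, -3.83 and -3.50 in sham aortas. The sham arrays were tight and far below, with replicate 2 not well above background. Btk was 4.0 ± 0.26 higher in CaCl2 than in sham aortas (16.0-fold; adjusted p = 0.000171), and 2.15 with normexp (adjusted p = 0.000183). Vav1, the exchange factor that loads Rac with GTP, was at 3.11, 3.43 and 3.22 in CaCl2+IgG aortas, at 3.13, 3.12 and 3.71 in CaCl2 aortas and at 0.34, 0.72 and -0.23 in sham aortas. Its CaCl2-treated arrays differed little among themselves, and all 9 arrays were well above background. Vav1 was 3.05 ± 0.26 higher in CaCl2 than in sham aortas (8.26-fold; adjusted p = 0.000371).

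Plcg2, the phospholipase that makes inositol trisphosphate and diacylglycerol, had the smallest difference. It was at 3.74, 3.40 and 3.18 in CaCl2+IgG aortas, at 3.33, 3.16 and 3.81 in CaCl2 aortas and at 2.34, 2.85 and 2.56 in sham aortas. The groups did not overlap, but the lowest CaCl2 array lay only just above the highest sham array. The difference of 0.85 ± 0.23 (1.81-fold, 95% interval 1.26 to 2.58; adjusted p = 0.0207) lost its call with the row as a block (0.72, adjusted p = 0.115) and with the slide as a block or without sham replicate 3 (0.84, adjusted p = 0.0597). It also lost it without sham replicate 1 (0.73, adjusted p = 0.0674) and without CaCl2 replicate 3 (0.67, adjusted p = 0.0646).

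Card9, the scaffold that joins Syk to Bcl10 and Malt1, was read close to its background. It was at -4.21, -3.51 and -3.46 in CaCl2+IgG aortas, at -4.50, -4.58 and -3.65 in CaCl2 aortas and at -5.96, -4.78 and -5.82 in sham aortas. No sham array was well above background, and sham replicate 2 lay just below the lowest CaCl2 array. The measured means were -4.24 in CaCl2 and -5.52 in sham aortas (difference 1.28 ± 0.38, adjusted p = 0.033), and the bound gave no fold above 1. With normexp and its offset of 50 units the sign turned, to -0.18 (limma, adjusted p = 0.461). The processed Card9 signals were 19.3 to 30.3 units in CaCl2 aortas and 4.34 to 11 in sham aortas, all below that offset. The call was also lost with the slide as a block or without sham replicate 3 (1.13, adjusted p = 0.102), without sham replicate 1 (1.05, adjusted p = 0.101), without CaCl2 replicate 1 (1.41, adjusted p = 0.0578) and without CaCl2 replicate 3 (0.98, adjusted p = 0.104).

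**Figure D2:**
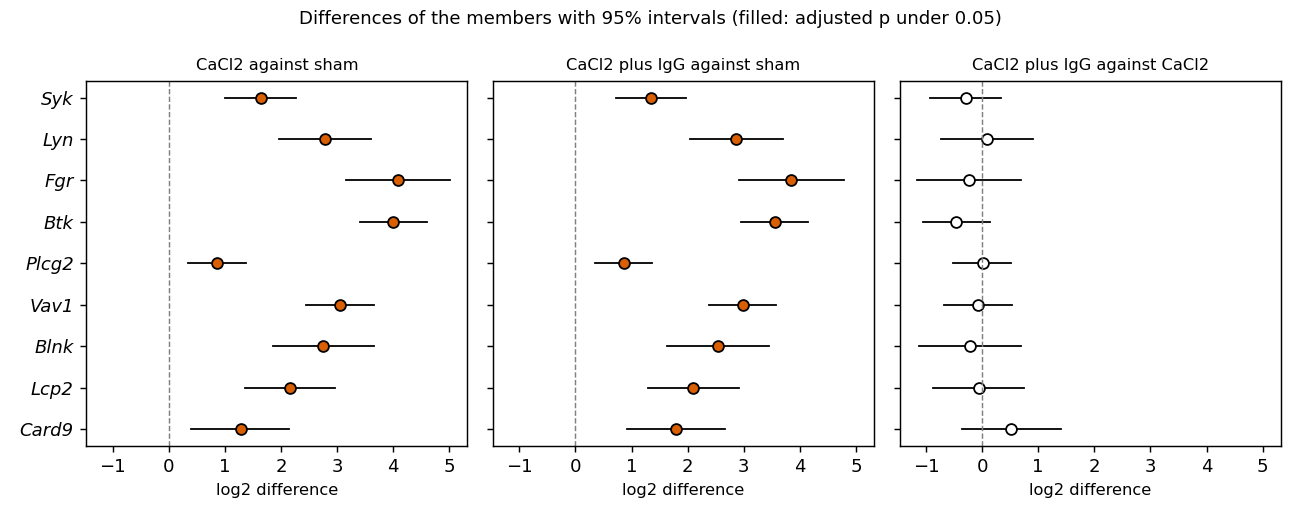
Points are the fitted log2 differences of each gene with 95% intervals, for CaCl2 against sham, CaCl2 plus IgG against sham and CaCl2 plus IgG against CaCl2; filled points have an adjusted p under 0.05 (limma). Both comparisons with sham lie right of 0 for all 9 genes, from Plcg2 (0.85 and 0.86) to Fgr (4.08 and 3.85), while all 9 intervals of the third panel span 0.

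Scaling matters for how these differences are read, since the called genes split 47.5% higher to the rest lower with the 75th percentile, 77% higher with each array centred on its median and 32.4% higher with no filter on dim probes. The median difference of all genes between CaCl2 and sham aortas was -0.08 with the 75th percentile and 0.39 with the median. Relative to that median, Syk was 1.72 higher with either scaling, Plcg2 0.94, Lyn 2.87, Blnk 2.84, Vav1 3.13, Btk 4.09 and Fgr 4.17. These values are equal under both scalings by construction, because each scaling subtracts 1 value per array, so their equality is no check on the scale.

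Single arrays were high or low for several of the genes at once in CaCl2 and sham aortas. CaCl2 replicate 3 was the highest of its group for 8 of the 9 genes, with Blnk the exception, and CaCl2 replicate 2 was the lowest for 7. Sham replicate 3 was the lowest sham array for Syk, Lyn, Fgr, Vav1 and Blnk, and sham replicate 2 was the highest for 6 genes. In CaCl2+IgG aortas each array was the highest for 3 genes. Replicate 1 was the lowest for 6, and replicate 3, the array that stood apart, was the lowest for Btk, Plcg2 and Blnk and the highest for Syk, Fgr and Card9.

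The second probes of 3 genes gave differences of the same direction. The other Btk probe, at -3.29, -3.13 and -4.81 in CaCl2+IgG aortas, at -3.05, -3.58 and -2.79 in CaCl2 aortas and at -6.58, -6.50 and -6.45 in sham aortas, was well above background on 0 of 3 sham arrays and was at least 2.16-fold higher in CaCl2 than in sham aortas (adjusted p = 0.00155, limma over 32166 probes). The other Vav1 probe was at 0.13, 0.39 and -0.13 in CaCl2+IgG aortas, at 0.29, 0.17 and 0.66 in CaCl2 aortas and at -2.61, -2.26 and -4.99 in sham aortas, a difference of 3.66 ± 0.62 (adjusted p = 0.00486). For the other Lcp2 probe, with 0 of 3 sham arrays well above background, the bound was at least 2.95-fold (adjusted p = 0.00784). The other Syk probe, annotated to a cDNA clone, was not tested: it was well above background on 1 CaCl2+IgG, 2 CaCl2 and 0 sham arrays. Its values were -7.22, -4.26 and -4.18 in CaCl2+IgG aortas, -4.44, -5.77 and -4.17 in CaCl2 aortas and -6.45, -6.31 and -6.23 in sham aortas, so the CaCl2+IgG arrays reached from below to above the sham arrays.

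**Figure D3:**
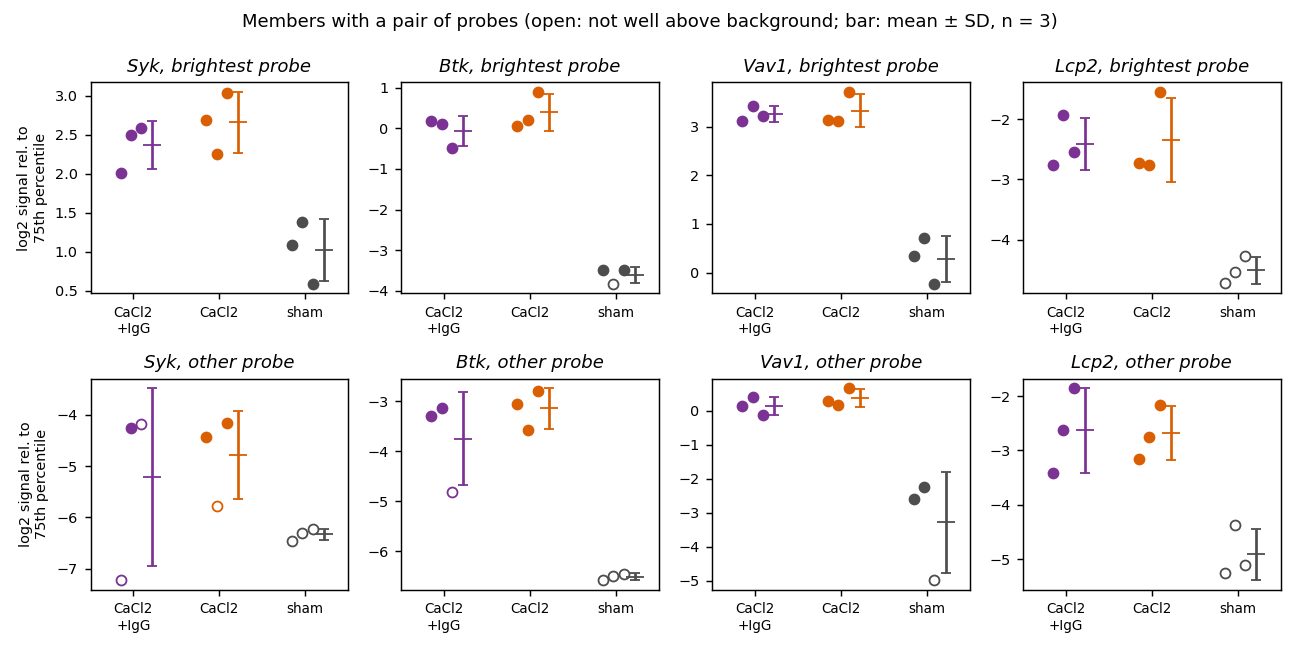
Each column is 1 gene with 2 probes, the probe used for the gene above and its other probe below, plotted as log2 signal relative to the 75th percentile for CaCl2+IgG, CaCl2 and sham arrays; open points are not well above background and bars are mean ± SD (n = 3). Both probes of Btk, Vav1 and Lcp2 are lower in sham aortas, and the lower Syk panel holds mostly open points with overlapping groups.

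Around these 9 genes, 98 others of the route were listed by role, of which 91 were tested. Between CaCl2 and sham aortas 65 of the 91 were higher, 4 lower and 22 did not pass, with a median difference of 2.03 against -0.08 over all genes. Among the 76 measured on all 9 arrays 52 were higher (68.4%, beside 15.3% of all genes so measured) and 3 lower. The others, Ms4a2, Blk, Rel, Pag1, Ubash3a, Il10 and Il23a, had no probe above background on all arrays of a group. The lists were drawn up with earlier results of these data known, so the counts are descriptive.

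Receptors and ITAM chains were higher for 13 of 15 tested genes, with a median of 2.65. Fcer1g, the ITAM chain that activating Fc receptors share, was 2.20 ± 0.42 higher (adjusted p = 0.00589) and Tyrobp, the chain of Trem receptors, 2.37 ± 0.56 higher (adjusted p = 0.0137). Clec4e, a C-type lectin that signals through Fcer1g, was at -0.23, 0.61 and 1.29 in CaCl2 aortas and at -6.59, -5.52 and -6.50 in sham aortas, where no array was well above background. Its signal was at least 27.9-fold higher in CaCl2 aortas (adjusted p = 0.000156), and Clec4n, another such lectin, was 3.68 ± 0.34 higher (adjusted p = 0.000459). Fcer1a, the IgE-binding chain found on mast cells and basophils, fell by 2.08 ± 0.66 (adjusted p = 0.04). That call was lost in 9 of 20 other settings, among them the row as a block (-0.99, adjusted p = 0.207).

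Kinases related to Syk and its partners were higher for 6 of 10, with a median of 2.66 and 0 lower. Zap70, the relative of Syk at the T cell receptor, was 3.27 ± 0.33 higher in CaCl2 than in sham aortas (adjusted p = 0.000611). For Txk, a Tec-family kinase of lymphocytes, the bound was at least 4.35-fold (adjusted p = 0.00205).

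Adaptors other than Blnk and Lcp2 were higher for 9 of 12, with a median of 2.07. Skap1, an adaptor of T cell adhesion, was 4.0 ± 0.63 higher in CaCl2 than in sham aortas (adjusted p = 0.00269), but 1.80 when its 2 kept probes were averaged (adjusted p = 0.00769). Lat2, a membrane adaptor of B, mast and myeloid cells, was 3.91 ± 0.62 higher (adjusted p = 0.00269).

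Of the enzymes and channels next to Plcg2, 7 of 11 were higher and 1 lower, with a median of 0.62. Nfatc2, a calcium-regulated transcription factor, was 2.46 ± 0.28 higher (adjusted p = 0.000841). Prkcq, the protein kinase C of T cells, was at least 5.77-fold higher by its brightest probe, which no sham array had well above background (adjusted p = 0.0014). By a probe measured on all 9 arrays its difference was 0.38 (adjusted p = 0.522). Itpr1, the calcium release channel of smooth muscle among other cells, fell by 1.1 ± 0.12 (adjusted p = 0.000837), a call that was lost with the median as the scale (-0.63, adjusted p = 0.0959).

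Exchange factors, Rac and phosphoinositide 3-kinase genes beside Vav1 were higher for 6 of 11 and lower for 1, with a median of 1.36. Rac2, the leukocyte Rac that Vav1 activates, was 2.49 ± 0.42 higher in CaCl2 than in sham aortas (adjusted p = 0.00349). Pik3r5, a regulatory subunit of the kinase in leukocytes, was 2.31 ± 0.57 higher (adjusted p = 0.016), and 2.05 without CaCl2 replicate 3 (adjusted p = 0.0566). Rasgrp2, an exchange factor for Rap in platelets, fell by 0.87 ± 0.23 (adjusted p = 0.0201), a call lost in 8 of 21 other settings, among them the median as the scale (-0.40, adjusted p = 0.36).

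Card9's partners gave small differences. Bcl10 was 0.96 ± 0.19 higher (adjusted p = 0.00627) and Malt1, the paracaspase of the complex, 1.31 ± 0.21 higher (adjusted p = 0.00287). Card10, the form of non-blood cells, fell by 0.89 ± 0.17 (adjusted p = 0.00605), and not past the test with the median as the scale (-0.41, adjusted p = 0.33). Of the 10 genes tested in this group 5 were higher and 1 lower, with a median of 0.64.

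Inhibitors of the route were higher as well, 10 of 13 with 0 lower and a median of 1.99. Ptpn6, a phosphatase of ITAM signalling, was 2.60 ± 0.40 higher in CaCl2 than in sham aortas (adjusted p = 0.00249), and Inpp5d, a lipid phosphatase, 2.03 ± 0.27 (adjusted p = 0.00131). Dok1, a docking protein that restrains tyrosine kinases, was 4.04 ± 0.72 higher (adjusted p = 0.00427) and Ptpn22, a phosphatase of Src-family kinases, 3.49 ± 0.27 (adjusted p = 0.000274).

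All 9 tested inflammatory genes that the route can induce were higher, with a median fitted difference of 4.14, though only 3 of them were measured on all 9 arrays. Il1b was at 2.23, 0.90 and 3.05 in CaCl2 aortas and at -3.66, -4.19 and -4.26 in sham aortas, with only sham replicate 1 well above background. The fitted difference was 6.10 ± 0.57 (adjusted p = 0.000459). Il6 was at 2.23, -1.90 and 3.04 in CaCl2 aortas and was not well above background in sham aortas, at least 41.5-fold higher in CaCl2 aortas (adjusted p = 0.00361). For both cytokines CaCl2 replicate 2 was the lowest of its group, as it was for Syk. Over all tested genes that array also lay nearest to the sham arrays within its group, at 33.4 on the first component beside 52.9 and 71.1.

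**Figure D4:**
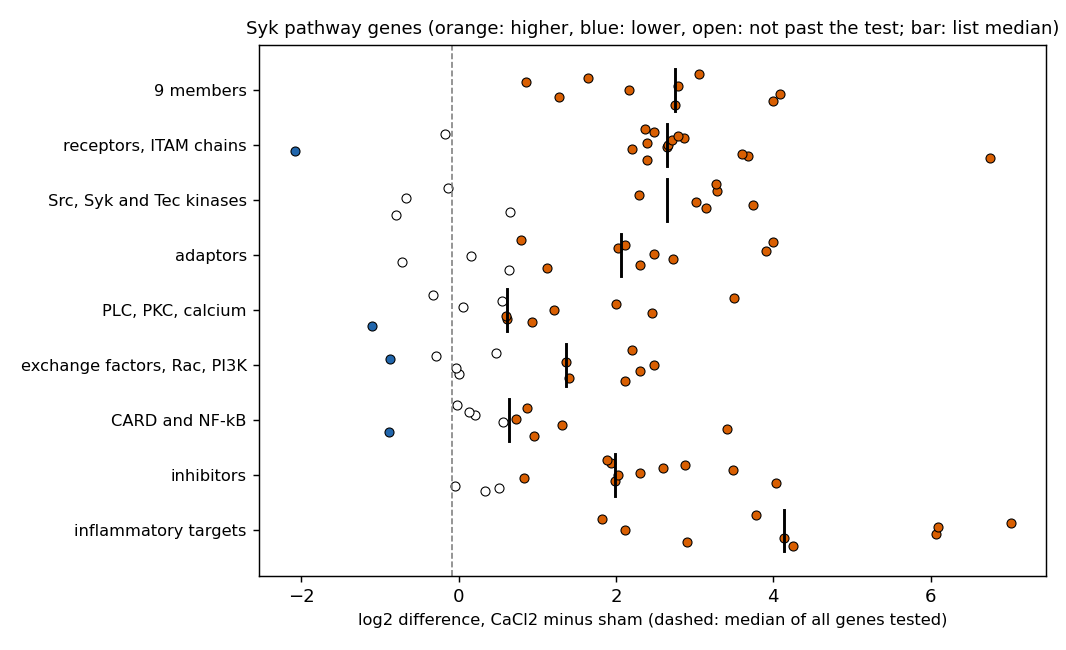
Each point is the log2 difference of 1 gene between CaCl2 and sham aortas, in rows by role, orange where higher and blue where lower at an adjusted p under 0.05 and open where the test was not passed; the bar is the list median and the dashed line the median of all genes. Points of the 9 core genes and the inflammatory genes are all orange, and 4 genes, Fcer1a, Itpr1, Rasgrp2 and Card10, are blue.

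Cell markers moved between the same groups, and their part in the results was not tested. Monocyte and macrophage markers were higher for 6 of 10 and lower for 2, T and NK cell markers higher for 6 of 8, neutrophil markers for 3 of 8, and platelet markers for 1 of 4. Mast cell markers were lower for 4 of 5 and smooth muscle markers for 6 of 6. Fibroblast markers were higher for 3 of 5 and endothelial markers lower for 2 of 5. Summed over the list and scaled to the 75th percentile, T and NK cell markers lay at 9.27 to 12.8 in CaCl2+IgG aortas, 9.60 to 18.8 in CaCl2 aortas and 3.73 to 4.33 in sham aortas. Monocyte and macrophage sums were 262 to 366 in CaCl2+IgG, 226 to 291 in CaCl2 and 230 to 234 in sham aortas, and 1 gene, Itgam, made up 65.5% to 85.9% of the sham sums. Itgam was lower in CaCl2 than in sham aortas on every array, and without it the sums were 176 to 211 in CaCl2+IgG, 185 to 207 in CaCl2 and 33.1 to 80.5 in sham aortas, with no overlap. The gene of largest signal in each list was left out after the data were seen. Smooth muscle sums were 881 to 1200 in CaCl2+IgG, 802 to 1290 in CaCl2 and 2580 to 2970 in sham aortas. In CaCl2 replicate 3, the array highest for 8 of the 9 genes, the T and NK cell sum was also the highest (18.8). Its monocyte and macrophage sum was the lowest of the group with Itgam (226) and without it (185, beside 207 and 202).

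B and plasma cell markers were read separately, because Btk, Blnk, Plcg2 and Lyn are best known from B cells and the mice are labelled B cell-deficient. Of 7 such markers 3 were higher in CaCl2 than in sham aortas, and the sums were 31.4 to 51.3 in CaCl2+IgG, 13.6 to 30.2 in CaCl2 and 2.65 to 4.48 in sham aortas. Jchain carried these sums, and without it they overlapped, at 2.75 to 7.17 in CaCl2+IgG, 2.34 to 4.28 in CaCl2 and 2.39 to 4.26 in sham aortas. Jchain, the joining chain of secreted IgA and IgM, was at 5.58, 5.41 and 4.60 in CaCl2+IgG aortas, at 4.69, 4.80 and 3.22 in CaCl2 aortas and at -1.95, 0.17 and -2.17 in sham aortas (5.55 higher in CaCl2 than in sham, adjusted p = 0.000936). Signal of Jchain was thus measured in CaCl2-treated aortas of mice labelled B cell-deficient, and which cells gave it was not tested. The difference of Ms4a1, a B cell marker, was 1.87 (adjusted p = 0.0571), and that of Cd79a 1.00 (adjusted p = 0.194). In CaCl2 replicate 3, the group's highest array for Btk, Plcg2 and Lyn, Jchain was the lowest of its group. These genes were picked from their list after their values were seen.

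**Figure D5:**
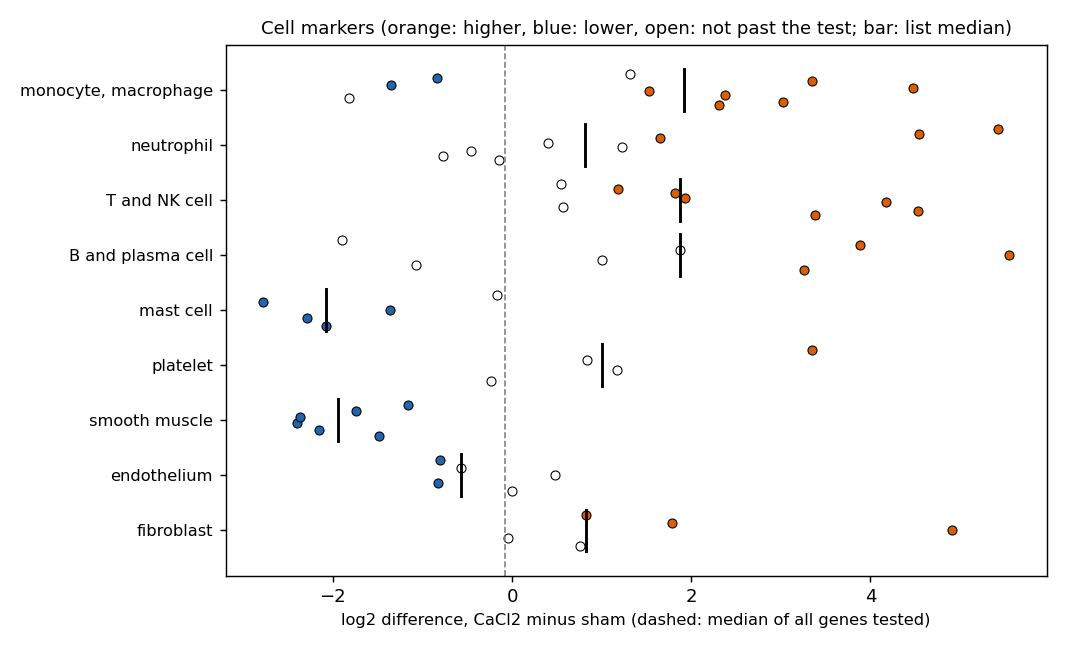
Each point is the log2 difference of 1 marker gene between CaCl2 and sham aortas, in rows by cell type, orange where higher and blue where lower at an adjusted p under 0.05 and open otherwise; the bar is the list median and the dashed line the median of all genes. Smooth muscle and mast cell rows lie left of 0 and the T and NK cell row right of it, with mixed directions among monocyte and macrophage, neutrophil and B and plasma cell markers.

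Injected IgG was compared with CaCl2 alone, since polyclonal IgG can engage Fc receptors that signal through Syk. None of the 9 genes passed in limma, 0 of 9 also at an unadjusted p under 0.05, and 0 of 16776 genes were called (0%). Over all genes 254 (1.51%) had an unadjusted p under 0.05. The arrays of both groups overlapped for all 9 genes, where 2.63% of all genes were higher and 2.41% lower without overlap. Syk averaged 2.36 ± 0.31 in CaCl2+IgG aortas and 2.66 ± 0.39 in CaCl2 aortas (SD, n = 3 each), and its difference of -0.29 had a 95% interval of -0.92 to 0.33, that is from 0.528-fold to 1.26-fold. The interval was -0.74 to 0.91 for Lyn, -1.16 to 0.70 for Fgr, -1.06 to 0.15 for Btk and -0.51 to 0.52 for Plcg2. It was -0.67 to 0.53 for Vav1, -1.12 to 0.69 for Blnk, -0.87 to 0.75 for Lcp2 and -0.36 to 1.40 for Card9. A difference of more than about 2-fold was therefore inside the interval of Fgr, Btk, Blnk and Card9 and outside that of Syk, Lyn, Plcg2, Vav1 and Lcp2.

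Leaving out CaCl2+IgG replicate 3, which stood apart, moved Syk to -0.41, Btk to -0.24, Blnk to -0.03 and Card9 to 0.38, and 0 of the 9 passed (limma, adjusted p = 1 for each). Within the upper row of array positions, with 1 CaCl2+IgG and 3 CaCl2 arrays of 1 slide, the Syk difference was -0.65, and with the row as a block it was -0.69 (adjusted p = 1). The other 91 genes of the route gave 0 calls and a median of -0.13, against -0.01 over all genes. Of their inflammatory genes 0 of 9 were called, with a median of -0.65 and fitted differences of -0.39 for Il1b and -0.65 for Il6. Without CaCl2+IgG replicate 3 the differences were 0.03 for Il1b and -0.03 for Il6. B and plasma cell markers were all above 0, 7 of 7 with a median of 0.60 and 0 called.

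CaCl2 with IgG was also set against sham, a comparison that shares the sham arrays with CaCl2 against sham. All 9 genes were called higher in CaCl2+IgG than in sham aortas, and all 9 without overlap, against 14.5% of all genes called higher (14% were lower and 28.6% called in either direction) and 20.2% higher without overlap. Syk was 1.34 ± 0.27 higher (2.54-fold; adjusted p = 0.00857), and 1.23 without CaCl2+IgG replicate 3 (adjusted p = 0.0157). In the lower row of array positions, with 2 arrays of each group on 1 slide, the Syk difference was 1.31, and between the 1 array of each group in the upper row it was 1.42. Fgr was 3.85 ± 0.41 higher (14.5-fold; adjusted p = 0.000701), Btk 3.55 ± 0.26 (11.7-fold; adjusted p = 0.000257) and Vav1 2.98 ± 0.26 (7.87-fold; adjusted p = 0.000425). Lyn was 2.87 ± 0.36 higher (7.31-fold; adjusted p = 0.00117), Blnk 2.54 ± 0.40 (5.82-fold; adjusted p = 0.00277) and Plcg2 0.86 ± 0.23 (1.81-fold; adjusted p = 0.0234). Against sham values at background, the signal of Lcp2 was higher by at least 3.56-fold (adjusted p = 0.00377) and that of Card9 by at least 1.44-fold (adjusted p = 0.0104).

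For Plcg2 that call was lost with the slide as a block or without sham replicate 3 (0.85, adjusted p = 0.0659), without sham replicate 1 (0.74, adjusted p = 0.0762), without CaCl2+IgG replicate 1 (0.71, adjusted p = 0.0765) and without CaCl2+IgG replicate 2 (0.88, adjusted p = 0.062). With normexp the difference was 0.41 for Lcp2 (adjusted p = 0.182) and 0.08 for Card9 (adjusted p = 0.751), neither past the test. Among the other 91 genes 58 were higher, 3 lower and 30 did not pass, with a median of 1.83 against -0.10 over all genes. The called genes of the whole array split 50.9% higher with the 75th percentile and 71.7% with the median.

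Ordered by mean, Syk stood highest in CaCl2 aortas, then in CaCl2+IgG aortas, then in sham aortas, and the first pair did not differ beyond its spread. The same order held for Fgr, Btk, Vav1, Blnk and Lcp2. For Lyn, Plcg2 and Card9 CaCl2+IgG aortas had the higher mean, again with overlap.

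The genes whose values over the 9 arrays were most like those of Syk, with each gene centred on its own mean and measured by the root mean square difference among 15645 ranked genes, were Ifi30, Ugcg, Mmp19, Mlph (0.17 log2 units each) and Gm11223 (0.18). Ifi30, a thiol reductase of antigen-presenting cells, was at 3.69, 3.88 and 3.76 in CaCl2+IgG aortas, at 3.94, 3.64 and 4.45 in CaCl2 aortas and at 2.72, 2.87 and 2.22 in sham aortas. Among the genes of the route Inpp5d ranked 50 and Malt1 104, ahead of Card9 at 637, Plcg2 at 909 and Lcp2 at 1152. The kinases that changed most ranked far down, Btk at 12888 and Fgr at 13292, since the measure takes in the size of the difference. The 9 arrays share their groups, so this likeness describes the pattern and carries no test.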

How the data were processed

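RNA of 9 aorta samples was hybridised to 1-colour (Cy3) Agilent mouse arrays. The deposited scanner files hold spot intensity on a linear scale, made, per the file headers, with Feature Extraction 10.7.1.1, which subtracted background and removed spatial trends; the submitters' processing notes name Agilent Feature Extraction 9.5.1.1. The authors' deposited series table, also intensity, has a median of 29.7 in all 9 columns, looks quantile-normalized, and served as an alternative input; its steps are not stated in those sources. Every column of it was mapped, leaving 0 unmapped.

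Each processed signal was turned into log2, less the 75th percentile of its array. Control and outlier spots were left out (16 missing values, 0 among the 13 probes of the 9 genes). A probe was kept if well above background on all 3 arrays of a group (32166 of 55681), and a gene was read by its probe of brightest mean. Symbols were given to 33197 probes, 27235 through their accession and 3581 through their symbol in RefSeq on GRCm38.p6, and the other 2381 kept the file's own name. Groups came from the titles. All 9 arrays entered 1 fit in limma 3.58.1 (lmFit and eBayes; R 4.3.3, the data.table package, 1.17.8), with Benjamini-Hochberg adjustment over 16776 genes and a threshold of 0.05, tested on simulated data. Arrays give no read depth; their number limits the precision.

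Named genes were the 9 genes, in each role list the 2 called genes with the largest change and any called gene against its list's direction, a set always named (among them Fcer1g, Tyrobp, Zap70, Ptpn6, Inpp5d, Bcl10 and Malt1), and the 5 genes most like Syk; some genes that this rule names are not reported here. Members, lists and tests were chosen with earlier results of these data known. Alternatives changed the scaling, background correction, filter, probe rule, input table, blocks (row, slide, replicate number), arrays in the fit, and left out each array in turn.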

Additional observations from a re-analysis of the deposited data

How the results depend on the processing

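Syk, Lyn, Fgr, Btk, Vav1 and Blnk kept their direction and stayed past the threshold in every setting tried for both comparisons with sham (21 settings, or 20 where the gene was not measured on all 9 arrays). The Syk difference ran from 1.42 to 2.11 for CaCl2 against sham (adjusted p 0.000718 to 0.015) and from 1.02 to 1.58 for CaCl2 plus IgG against sham (adjusted p 0.00272 to 0.038). The smallest values came without sham replicate 3 and, for the second comparison, without CaCl2+IgG replicate 3 as well, a joint setting chosen after seeing the data. One result reversed, Card9 in CaCl2 against sham with normexp, at -0.18. That setting added an offset of 50 units, and the processed Card9 signals on these arrays were 4.34 to 30.3 units. The cause of the reversal was not tested. Lcp2 in the same setting kept its direction without its call (0.35, adjusted p = 0.219). Of the genes named around the core, none that was called against sham changed sign; for CaCl2 plus IgG against CaCl2, where none was called, signs varied, as for Il1b (-0.39, and 0.03 without CaCl2+IgG replicate 3). The count over the 9 genes was 7 to 9 when 1 array was left out for CaCl2 against sham, and 8 to 9 for CaCl2 plus IgG against sham; with probes measured on all 9 arrays it was 4 of the 4 genes left to test in both, by construction. The count of other pathway genes was 58 to 71 and 52 to 64 when 1 array was left out.

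Over all genes, CaCl2 against sham called 6084 genes, 3374 with the row and 3915 with the slide as a block, and 3915 to 7536 with 1 array left out (3915 without sham replicate 3, 3998 without CaCl2 replicate 1). CaCl2 plus IgG against CaCl2 called 0 to 2 with 1 array left out (2 without CaCl2+IgG replicate 1). CaCl2 plus IgG against sham called 4790 genes, 3034 with the median as the scale, and 3010 to 6795 with 1 array left out (3010 without CaCl2+IgG replicate 2).

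The groups share replicate numbers but the numbers do not pair the samples: same-numbered samples deviated from their group means with correlations of -0.20 to 0.23, and the labels name no shared source. A fit with the replicate number as a block gave 5826, 0 and 4685 calls over all genes in the 3 comparisons and 9, 0 and 8 over the 9 genes, and left Syk at 1.64 (adjusted p = 0.0114), -0.29 (adjusted p = 1) and 1.34 (adjusted p = 0.0239). Dim probes and 3 arrays a group limit what can be measured: a probe at background on all arrays of a group bounds a fold and does not measure it, and differences inside the intervals of CaCl2 plus IgG against CaCl2 were not detectable.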
